A study of Mus musculus with 7 samples.

Results

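Voltage-gated potassium channels, their calcium- and sodium-activated relatives and the accessory proteins that travel with them were followed through the cell types of the mouse hippocampus. The genes were chosen by name, with earlier results of these data known. They comprised 28 of the 55536 genes in the deposited count matrices, and each of the 28 was found there. Of these, 20 encode pore-forming subunits. They cover Kv1 (Kcna1, Kcna2, Kcna4, Kcna6), Kv2 (Kcnb2), Kv3 (Kcnc1, Kcnc2, Kcnc4), Kv4 (Kcnd2, Kcnd3), Kv7 (Kcnq3, Kcnq5), the EAG family (Kcnh1, Kcnh5, Kcnh7, Kcnh8), the BK channel (Kcnma1), SK channels (Kcnn2, Kcnn3) and the Slick channel (Kcnt2). The other 8 encode partners, namely the Kv1 beta subunits Kcnab1 and Kcnab2 and the Kv4 partners Kcnip1 to Kcnip4, Dpp6 and Dpp10.

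Potassium channels let potassium leave the cell and so bring the membrane back towards rest. In neurons, Kv1 channels limit firing along axons, Kv3 channels allow fast repetitive firing, and Kv4 channels with their KChIP and DPP partners form the rapidly inactivating A-type current of dendrites. Kv7 channels carry the M-current that restrains bursts, while BK and SK channels open in response to calcium entry and shape the afterhyperpolarization. Glia use another set of potassium channels, mostly inward rectifiers and leak channels, for potassium buffering.

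The Arctic48 (Arc) mouse is hemizygous for a human amyloid precursor protein transgene that carries the Indiana, Swedish and Arctic mutations, on the C57BL6/J background, and its comparison group is WT mice without the transgene. The mice received either plain water (vehicle) or the cyclic peptide PMX205 at 20 µg/ml, an antagonist of the complement receptor C5aR1, in the drinking water for 12 weeks, and hippocampi were collected at 10 months of age. All mice of all groups were housed singly during treatment. This gave 4 groups, on vehicle (WT-veh and Arc-veh) or on PMX205 (WT-PMX and Arc-PMX), each with 6 wells of nuclei, 3 from females (F1 to F3) and 3 from males (M1 to M3), and the methods give 3 hippocampal samples per sex, genotype and treatment, which is 1 per well. The promoter that drives the transgene is not given in the sources used here. Nuclei were barcoded by split-pool ligation, in which the first barcode marks the well.

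After filtering and removal of 1253 likely doublets, 43885 nuclei remained, with 1150 to 3111 nuclei and 4389302 to 30001277 transcripts per well. Nuclei were clustered without any potassium channel gene, and clusters were named from marker lists as dentate granule-like, CA1-like, CA3-like, interneuron-like, astrocyte-like, oligodendrocyte-like, oligodendrocyte precursor-like (OPC) and microglia-like nuclei, written without the suffix from here on. Levels are given as transcripts of a gene per 1000000 transcripts of that cell type in that well (CPM). The wells WT-veh F3 and WT-veh M3 stood apart, with 15 and 28 oligodendrocyte nuclei where other wells held 97 to 294, and with 0 and 3 microglia nuclei where others held 9 to 160. The sample sheet places WT and Arc wells in different plate columns and places each combination of sex and treatment in its own plate row, so plate position and these factors cannot be told apart. Prox1 had a median of 365 CPM in dentate granule nuclei, 44.9 CPM in interneurons and 1.17 CPM in CA1 nuclei, but also 335 CPM in oligodendrocytes. Fibcd1 had 71.7 CPM in CA1 nuclei, 4.70 CPM in dentate granule nuclei and 0.778 CPM in CA3 nuclei. Gad2 had 338.9 CPM in interneurons and 0.857 CPM in dentate granule nuclei. Gad1 had 328.5 CPM in interneurons, 76.3 CPM in OPC and 48.0 CPM in dentate granule nuclei. Grik4 was not exclusive to CA3 nuclei either, with 2101 CPM there, 680.1 CPM in dentate granule nuclei and 695 CPM in OPC. App, the gene that the transgene copies, served as the check of the genotype labels. In dentate granule nuclei it ranged from 273 to 424 CPM in WT wells and from 424 to 777 CPM in Arc wells. The log2 difference was 0.61 (edgeR quasi-likelihood test, Benjamini-Hochberg adjusted p = 4.2e-06), and 11 of 12 Arc wells lay above every WT well. App also passed an adjusted p of 0.05 in CA1 (0.36), CA3 (0.25), astrocytes (0.43) and oligodendrocytes (0.94). It did not in interneurons (0.07), OPC (0.16) or microglia (-0.02), so the check rests on the other types.

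Across the 8 cell types, 19 of the 28 genes had their highest median level in a neuronal subtype, 4 in OPC, 3 in oligodendrocytes and 2 in astrocytes. These levels describe the clusters and were not tested against each other, and they compare 1 gene between cell types, never different genes with each other.

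**Figure D1:**
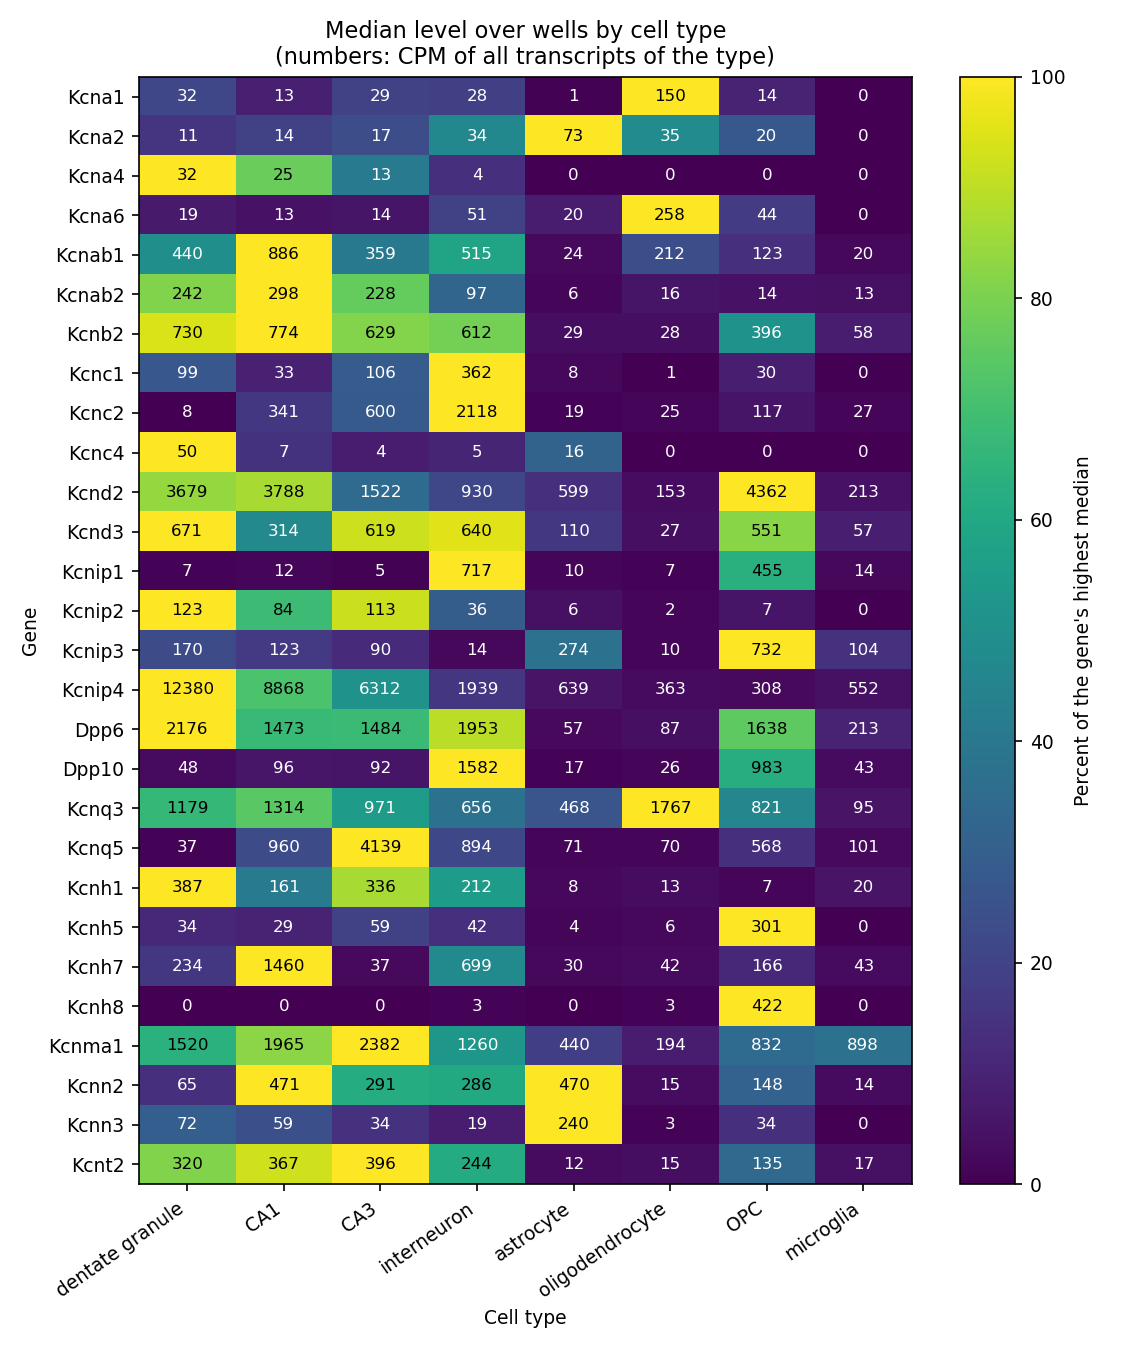
Median CPM of each of the 28 genes (vertical axis) in 8 cell types (horizontal axis), over 24 wells or 21 wells for microglia. The numbers are CPM and the colour gives the percent of the gene's own highest median. The highest cell of Kcnc2 is the interneuron, that of Kcnq5 is CA3, that of Kcnh7 is CA1, and that of Kcnh8 is the OPC.

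Among the Kv1 pore subunits, Kcna1 and Kcna6 were highest in oligodendrocytes. Kcna1 ranged from 82.1 to 227 CPM there (median 149.6, n = 24 wells) against a median of 31.6 CPM in dentate granule nuclei, the next type in order. Kcna6 ranged from 125 to 411 CPM in oligodendrocytes (median 258) against a median of 51.1 CPM in interneurons. For both genes the oligodendrocyte level exceeded the next type's level in 24 of 24 wells. Kcna2 was highest in astrocytes, with a median of 73.4 CPM and a range of 42.2 to 118 CPM, above its oligodendrocyte level in 20 of 24 wells. Kcna4, a subunit that inactivates rapidly, was highest in dentate granule nuclei (median 32.0 CPM) and CA1 nuclei (24.7 CPM), and its median was 0 in all 4 glial types. The beta subunits, which bind the cytoplasmic face of Kv1 channels, had their highest medians in neurons. Kcnab1 had a median of 886 CPM in CA1 nuclei and 515 CPM in interneurons, and Kcnab2 had 298 CPM in CA1 nuclei and 242 CPM in dentate granule nuclei. For both genes the highest glial median was in oligodendrocytes. It stood at 0.24 of the CA1 median for Kcnab1 and at 0.055 for Kcnab2, so Kcnab1 was not confined to neurons.

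Kcnb2, a delayed rectifier subunit, was spread almost evenly over the neurons, with medians of 729.9 CPM in dentate granule nuclei, 774 CPM in CA1, 629 CPM in CA3 and 612 CPM in interneurons. Its CA1 level exceeded the dentate granule level in 20 of 24 wells. The Kv3 genes, in contrast, were uneven between neuronal subtypes. Kcnc2 had a median of 2118 CPM in interneurons (1282 to 2770), 600.2 CPM in CA3, 341 CPM in CA1 and 8.22 CPM in dentate granule nuclei, and the interneuron level was the highest in 24 of 24 wells. Kcnc1 had 361.5 CPM in interneurons, against 106 CPM in CA3 and 33.4 CPM in CA1. Kcnc4 was highest in dentate granule nuclei, with 50.3 CPM, and had 4.11 to 7.38 CPM in the other neuronal subtypes.

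The Kv4 genes and their partners differed in the order of their cell types. Kcnd2 had medians of 3679 CPM in dentate granule nuclei and 3788 CPM in CA1, and the CA1 level was the higher in 11 of 24 wells, so these subtypes did not differ beyond their spread. Its highest median, 4362 CPM (3151 to 5539), was in OPC. Kcnd3 had 671 CPM in dentate granule nuclei, 639.9 CPM in interneurons, 619 CPM in CA3 and 314.5 CPM in CA1. Among the KChIP genes, which encode calcium-binding subunits of Kv4 channels, Kcnip4 was highest in dentate granule nuclei with 12380 CPM (10110 to 14430), followed by 8868 CPM in CA1, 6312 CPM in CA3 and 1939 CPM in interneurons. Kcnip1 had medians of only 4.76 to 11.5 CPM in the excitatory subtypes and reached 717 CPM in interneurons and 455 CPM in OPC. Kcnip2 had 123 CPM in dentate granule nuclei and 113 CPM in CA3, and dentate granule nuclei were above CA3 in 12 of 24 wells, so this pair was not separated. Kcnip3 was highest in OPC with 732 CPM, then in astrocytes with 274 CPM, and lowest among neurons in interneurons with 14.4 CPM. Of the dipeptidyl peptidase-like partners, which speed Kv4 gating, Dpp6 was high in every neuronal subtype (1473 to 2176 CPM) and in OPC (1638 CPM), whereas Dpp10 had 1582 CPM in interneurons, 983 CPM in OPC and only 47.8 CPM in dentate granule nuclei.

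Of the Kv7 genes, Kcnq5 was highest in CA3, with 4139 CPM (2611 to 5175), against 959.6 CPM in CA1 and 36.6 CPM in dentate granule nuclei, and the CA3 level was the highest in 24 of 24 wells. Kcnq3 differed less among neurons (656 to 1314 CPM) and was highest in oligodendrocytes, with 1767 CPM, above CA1 in 22 of 24 wells. In the EAG family, Kcnh7 had 1460 CPM in CA1 and 36.7 CPM in CA3, Kcnh1 had 387 CPM in dentate granule nuclei and 161 CPM in CA1, and Kcnh5 had 301 CPM in OPC against 59.5 CPM in CA3. Kcnh8 had 422 CPM in OPC (212 to 568). Its median was at most 3.48 CPM in the rest of the 8 cell types. Within these types its ratio between the first and second type, 121-fold, was the largest of all members. Kcnh8 was also among the top genes of a cluster of 572 nuclei named as other excitatory neurons. That cluster was not among the types compared, so Kcnh8 is not shown to be particular to OPC.

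Kcnma1, the BK pore, had 2382 CPM in CA3, 1965 CPM in CA1, 1520 CPM in dentate granule nuclei and 1260 CPM in interneurons, and CA3 was above CA1 in 24 of 24 wells. Kcnn2 had nearly equal medians in CA1 (471 CPM) and astrocytes (470.2 CPM), with CA1 above astrocytes in 15 of 24 wells, and 64.9 CPM in dentate granule nuclei. Kcnn3 was highest in astrocytes with 240.1 CPM (125 to 303), above its dentate granule level in 24 of 24 wells. Kcnt2, which encodes the Slick channel opened by sodium and chloride, had 396 CPM in CA3, 367 CPM in CA1, 320.3 CPM in dentate granule nuclei and 244 CPM in interneurons.

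Within the interneurons, 1295 nuclei formed a cluster with markers of the medial ganglionic eminence (MGE, such as Lhx6). Another 795 formed a cluster with markers of the caudal ganglionic eminence (CGE, such as Adarb2). A further 539 nuclei, in a cluster assigned to neither class, were not compared. For 11 of the 28 genes the order of the MGE and CGE clusters was the same in every well, with ties counted for CGE. The share of all genes with such an order was not counted. Higher in the MGE cluster in 24 of 24 wells were Kcnc2 (medians 2898 against 1368 CPM), Kcnma1 (1712 against 599.6 CPM), Dpp10 (1783 against 952 CPM) and Kcnip2 (45.0 against 11.5 CPM). At or above the MGE level in the CGE cluster of 24 of 24 wells were Kcnq5 (2330 against 270.1 CPM), Kcnn2 (616 against 114 CPM), Kcnt2 (494 against 136 CPM), Kcnh1 (370.4 against 104 CPM), Kcnip1 (1217 against 481.5 CPM), Kcnd3 (943.5 against 487 CPM) and Kcnn3 (26.0 against 8.58 CPM). The interneuron values given above are therefore averages over clusters with different levels of these genes.

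Transcripts of 10 neuronal marker genes were also counted in glial nuclei, which gives a background for the glial levels. The median summed level of these markers in glia was 5.82% of that in neurons for astrocytes, 4.33% for oligodendrocytes and 6.50% for microglia. On the same scale the astrocyte level stood at 484% of the neuronal level for Kcnn3, 414% for Kcna2, 250.3% for Kcnip3, 162% for Kcnn2, 42.1% for Kcnq3, 24.4% for Kcnma1 and 20.7% for Kcnd2, all several-fold above the marker share. Kcnip4 in astrocytes, at 7.17%, lay close to it. For genes that are uneven between neuronal subtypes, such a share depends on which neurons it is set against. The Kcnn2 median in CA1 nuclei, 470.6 CPM, was close to the astrocyte one, 470.2 CPM, and 7.25-fold that in dentate granule nuclei. In oligodendrocytes Kcna6 stood at 1266% and Kcnq3 at 168%, and in microglia Kcnma1 stood at 47.6% and Kcnip3 at 92.7%.

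The comparison of Arc with WT wells, over both treatments and with sex as a covariate, asks whether the transgene goes with a change in these channels. Over the 8 cell types, 164 tests of the 28 genes passed the filter on low counts and 17 were called at an adjusted p under 0.05, with 6 higher and 11 lower in Arc. Of those, 10 lay in astrocytes and 4 in neurons. The share of all genes called ranged from 0.0113% in interneurons to 20% in astrocytes. Without adjustment, 23.8% of the 164 tests had p under 0.05, against 12.0% of the tests of all genes. The male against female comparison had a like pair of shares, 22.6% against 11.9%, with 1 call. Since the genes were chosen with earlier results of these data known, neither pair of shares is a test of enrichment.

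In dentate granule nuclei Dpp10 rose, Kcnt2 and Kcnip2 fell, and the other 24 genes tested were not called, while Kcnh8 was not tested there. The share of all genes called in that comparison was 1.59%. The 250 bases before the RefSeq start of these 3 genes are shown because these are the members that changed in these nuclei. They were read from the RefSeq promoter table of build GRCm38.p6, in which 24 of the 28 genes were found, and capitals mark matches to CCAAT (or ATTGG) and to GGGCGG (or CCGCCC) on either strand.
Dpp10: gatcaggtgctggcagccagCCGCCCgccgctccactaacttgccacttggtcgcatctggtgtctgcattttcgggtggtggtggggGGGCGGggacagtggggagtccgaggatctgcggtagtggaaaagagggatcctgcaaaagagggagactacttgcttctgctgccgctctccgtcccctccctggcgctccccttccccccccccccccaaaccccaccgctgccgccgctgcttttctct
Kcnt2: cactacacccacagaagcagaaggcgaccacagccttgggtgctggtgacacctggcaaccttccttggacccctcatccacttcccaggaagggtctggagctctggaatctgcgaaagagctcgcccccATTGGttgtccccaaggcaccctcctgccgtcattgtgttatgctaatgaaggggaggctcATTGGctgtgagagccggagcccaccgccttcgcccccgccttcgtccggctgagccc
Kcnip2: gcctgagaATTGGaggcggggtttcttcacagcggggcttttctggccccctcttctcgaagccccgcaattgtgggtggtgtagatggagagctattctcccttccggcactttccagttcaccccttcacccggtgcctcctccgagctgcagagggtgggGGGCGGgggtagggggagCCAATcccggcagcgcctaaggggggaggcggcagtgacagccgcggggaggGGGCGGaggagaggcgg

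The Dpp10 stretch lies at chr1:124045560-124045809 on the minus strand, the Kcnt2 stretch at chr1:140245468-140245717 on the plus strand, and the Kcnip2 stretch at chr19:45816064-45816313 on the minus strand. All are rich in G and C, with 65.2%, 61.6% and 66.8% against a median of 52% over 27025 promoters, and hold 14, 10 and 15 CpG. CCAAT was found 2 times in Kcnt2 and 2 times in Kcnip2, a motif present in 34.5% of promoters of that length, and GGGCGG was found 2 times in Dpp10 and 2 times in Kcnip2, against 33.0% of promoters. None of the 3 held TATAAA, TGACGTCA or TGANTCA, which were present in 13.0%, 1.60% and 6.85% of promoters. The starts are those of RefSeq, and that of Kcnt2 lies upstream of the start at 140246158 given for the gene in the annotation used for its position. The counts do not show which start site was used.

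Dpp10, on chromosome 1 from 123321471 to 124045559 on the minus strand in mm10, spans 724 kb, and 10 annotated genes overlap it, 1 of them antisense. Antisense genes also overlap Kcnt2, Kcnq3, Kcnip4, Kcnd3, Kcna6, Kcnma1, Kcnn2, Dpp6, Kcnq5, Kcnb2, Kcnh1, Kcnh7, Kcnip1, Kcnab1 and Kcnab2. Since the strand setting of the count is not given in the sources used here, reads of these members and of their antisense genes cannot be told apart. In dentate granule nuclei the level of Dpp10 was 24.6, 36.9 and 43.1 CPM (lowest, median and highest of 6 wells) in WT-veh and 33.7, 41.6 and 47.9 CPM in WT-PMX. It was 48.4, 65.1 and 97.0 CPM in Arc-veh wells and 47.6, 78.4 and 95.8 CPM in Arc-PMX. All 12 Arc wells were above the WT median and 11 of 12 were above every WT well, with 1 Arc-PMX well just inside the WT range. The rise was 1.94-fold (log2 difference 0.95, SE 0.12, adjusted p = 3.8e-06). Interneurons are the cells with the most Dpp10, and the part of RNA from other cells in this result was not tested.

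Kcnt2, on chromosome 1 from 140246158 to 140612067 on the plus strand, was 307, 344 and 478.5 CPM in WT-veh and 323, 383 and 491.5 CPM in WT-PMX. It was 241, 275 and 352 CPM in Arc-veh wells and 201, 307 and 343 CPM in Arc-PMX. Every Arc well lay below the WT median and 7 of 12 lay below every WT well, so the groups overlapped. Kcnt2 fell by 0.42 on the log2 scale (SE 0.08, adjusted p = 0.00258), a decrease by 25.1%. The Kv4 partner Kcnip2, on chromosome 19 from 45791839 to 45816061 on the minus strand, was 122, 137 and 174 CPM in WT-veh, 102, 124 and 156 CPM in WT-PMX, 78.5, 106 and 143 CPM in Arc-veh wells and 72.2, 99.6 and 129 CPM in Arc-PMX. The ranges overlapped widely, with 5 of 12 Arc wells below every WT well. Kcnip2 fell by 0.34 (SE 0.09, adjusted p = 0.0407), and that call is weak: without the wells WT-veh F3 and M3 the adjusted p was 0.0799, without the sex covariate it was 0.0643, and in 14 of 24 omissions of a single well it passed 0.05 (up to 0.0885). Of the Kv4 pore genes, Kcnd3 had a log2 difference of 0.14 (SE 0.06, adjusted p = 0.33) and Kcnd2 one of -0.01 in the same nuclei.

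**Figure D2:**
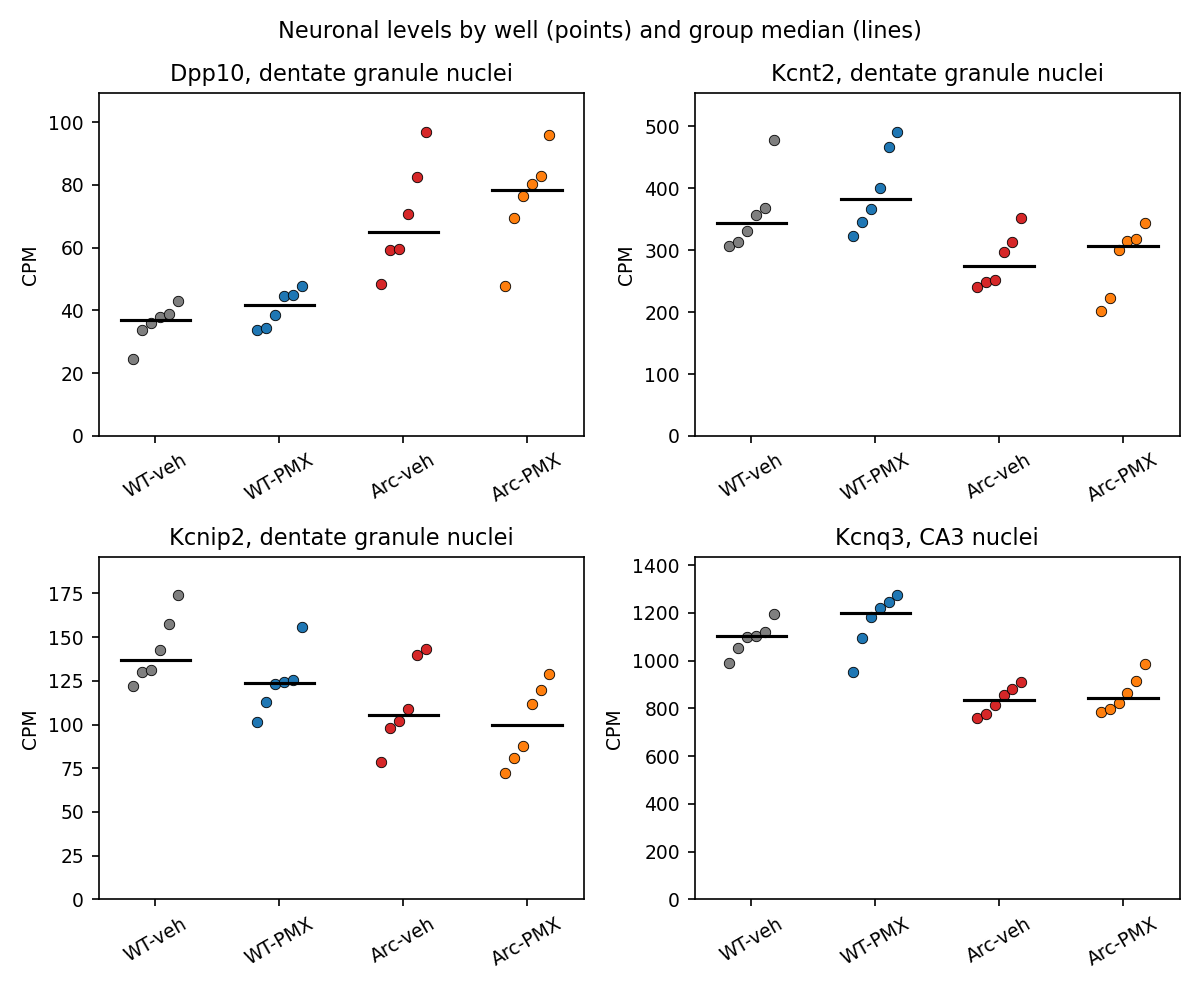
CPM (vertical axis, from 0) in each well (points) of the 4 groups (horizontal axis) for Dpp10, Kcnt2 and Kcnip2 in dentate granule nuclei and Kcnq3 in CA3 nuclei, with lines at the group medians of 6 wells. For Dpp10, 11 of 12 Arc wells are above all WT wells, and for Kcnq3, 11 of 12 are below all WT wells.

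In CA3 nuclei, 27 genes were tested and Kcnq3 was the only one called, where 0.434% of all genes were called. Kcnq3, a Kv7 subunit on chromosome 15 from 65986387 to 66286642 on the minus strand, was 992, 1102 and 1194 CPM in WT-veh and 954.5, 1201 and 1275 CPM in WT-PMX. In Arc-veh it was 761, 836 and 909 CPM, and in Arc-PMX it was 786, 844 and 987 CPM. All 6 Arc-veh wells were below all 6 WT-veh wells, and 11 of 12 Arc wells were below every WT well. Kcnq3 fell by 0.40 (SE 0.06, adjusted p = 9.6e-05), a decrease by 24.2%. The other Kv7 gene, Kcnq5, which was highest in these nuclei, had a log2 difference of 0.02 there.

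No member was called in CA1 nuclei (27 tested, 5 with an unadjusted p under 0.05, and 0.0677% of all genes called) or in interneurons (25 tested, 0 with an unadjusted p under 0.05, and 0.0113% of all genes called). DESeq2 with the same design also called 17 of the tests over all types. The values closest to the threshold in CA1 were Kcnh1, an EAG pore gene, with a log2 difference of 0.24 (SE 0.07, adjusted p = 0.31), Kcnip2 with -0.28 (SE 0.09, adjusted p = 0.46) and Kcnh5 with 0.34 (SE 0.13, adjusted p = 0.63). Kcnip2 had a similar difference in CA3, at -0.32 (SE 0.09, adjusted p = 0.16).

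**Figure D3:**
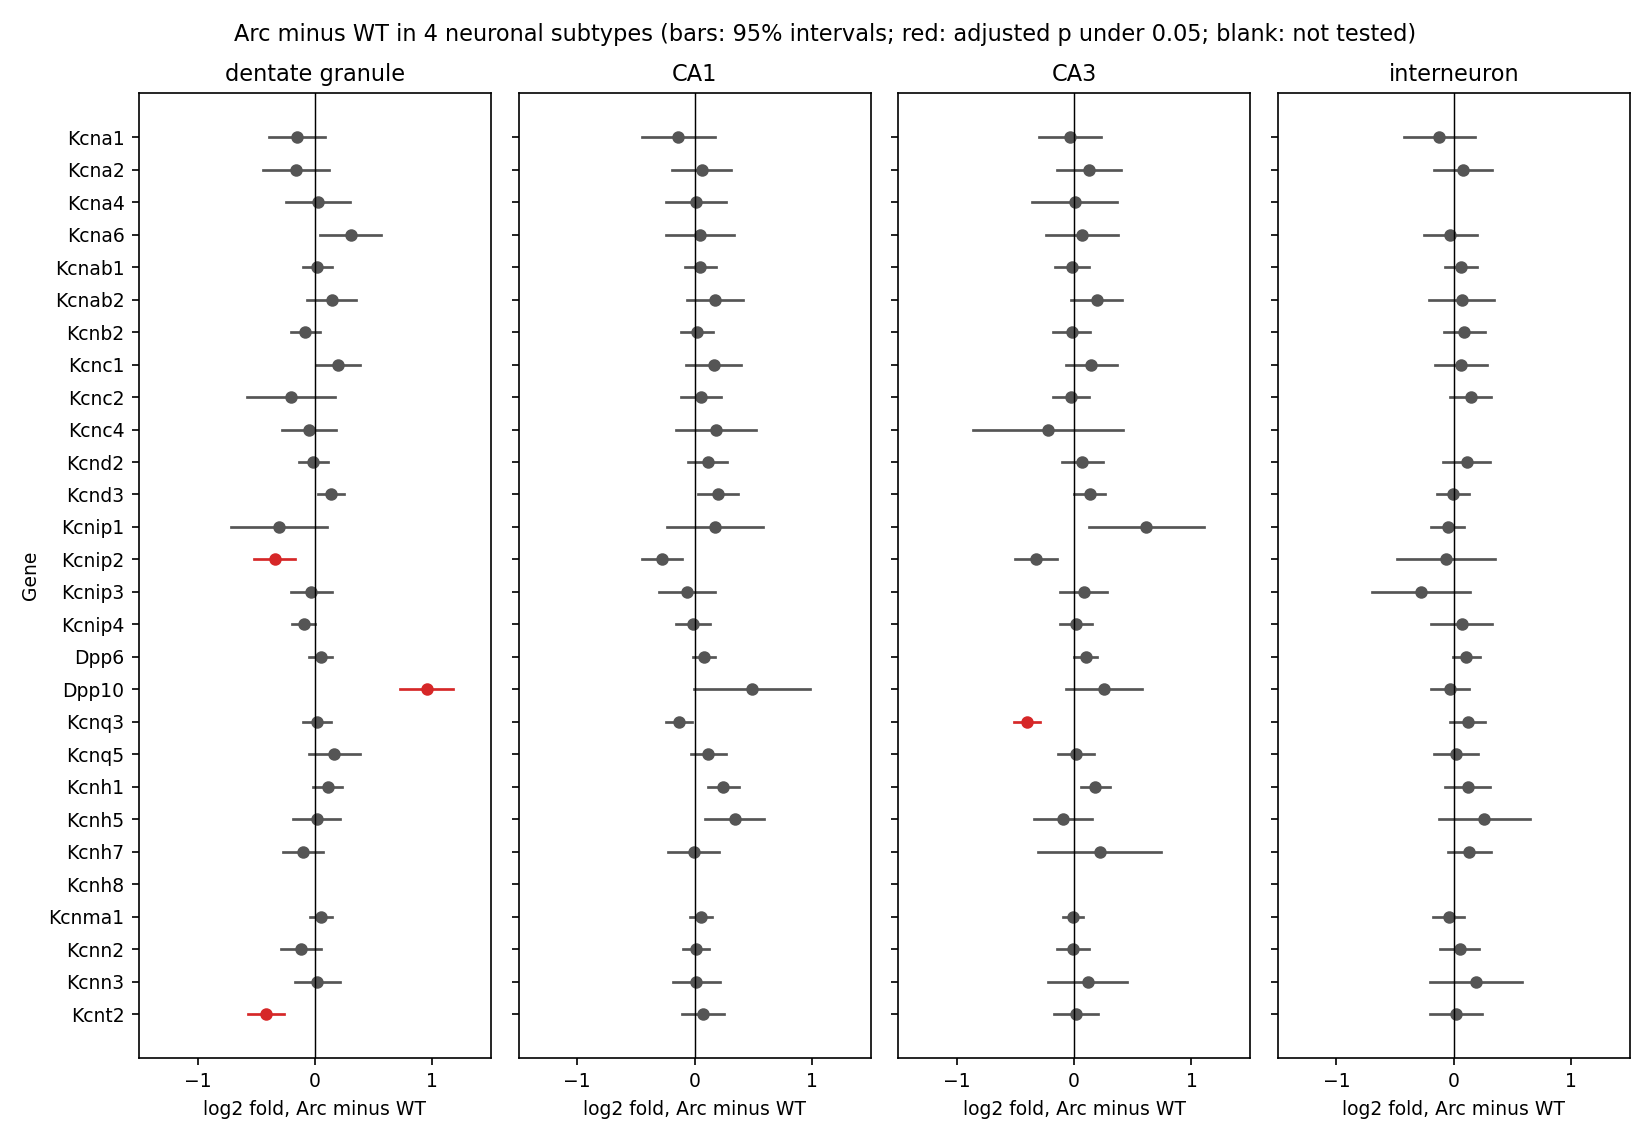
Log2 difference, Arc minus WT (horizontal axis), of each gene (vertical axis) in 4 neuronal subtypes, with bars of 1.96 SE. Red points passed an adjusted p of 0.05, namely Dpp10, Kcnip2 and Kcnt2 in dentate granule nuclei and Kcnq3 in CA3, and a blank marks a gene that was not tested.

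Whether an Arc minus WT difference differed between neuronal subtypes was tested directly, with both subtypes of a well in 1 fit and the well as a block. Of 161 such tests of the members over the 6 pairs of subtypes, 8 were called, and they fell on 3 genes. Without the filter on low counts 16 were called, these 8 among them, and the added calls were on Dpp10, Kcnd2, Kcnh5, Kcnh7 and Kcnip1. The shares of all genes called were 1.03% for dentate granule against CA1, 1.12% against CA3 and 1.1% against interneurons, then 0.0824% for CA1 against CA3, 0.0382% for CA1 against interneurons and 0.139% for CA3 against interneurons. For Kcnt2 the dentate granule difference was below that of CA1 by 0.50 on the log2 scale (SE 0.05, adjusted p = 8.8e-08), below that of CA3 by 0.44 (adjusted p = 2.9e-05) and below that of interneurons by 0.42 (adjusted p = 0.00156). Kcnt2 itself had medians of 362 CPM in WT and 367 CPM in Arc wells in CA1.

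For Dpp10 the difference in interneurons was lower than in dentate granule nuclei by 0.98 (value -0.98, SE 0.11, adjusted p = 1.1e-07) and that in CA3 was lower by 0.62 (value -0.62, SE 0.15, adjusted p = 0.0304). The CA1 difference of Dpp10, 0.49 with an SE of 0.25, was not separated from that of dentate granule nuclei (value -0.45, SE 0.22, adjusted p = 0.51), so a difference between these subtypes was not shown. For Kcnq3 the difference in CA3 was below that of dentate granule nuclei (value -0.41, SE 0.06, adjusted p = 3.7e-05) and below that of CA1 (value -0.27, SE 0.05, adjusted p = 0.0112), and that of interneurons was above that of CA3 by 0.52 (SE 0.08, adjusted p = 0.000712). The Kcnip2 difference in CA1 and CA3 exceeded the dentate granule one by 0.08 (SE 0.08) and 0.05 (SE 0.07), neither of them called. Its fall is thus not shown to be particular to the dentate granule nuclei.

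**Figure D4:**
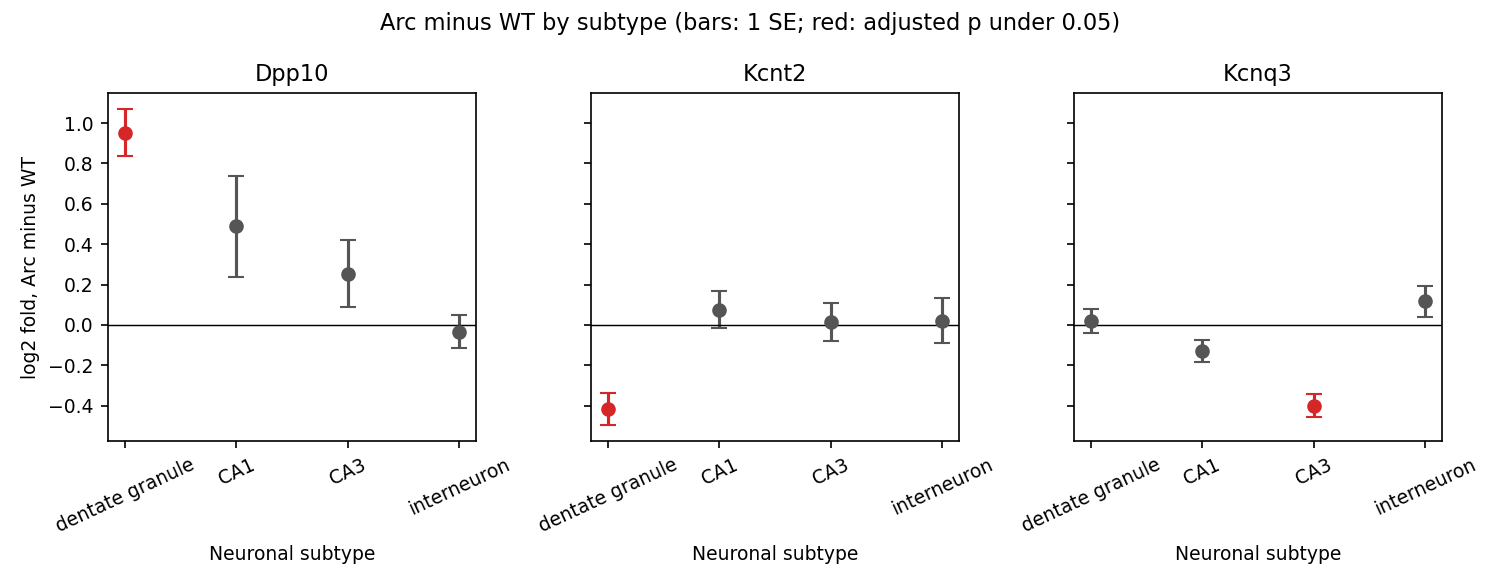
Log2 difference, Arc minus WT (vertical axis), of Dpp10, Kcnt2 and Kcnq3 in 4 neuronal subtypes (horizontal axis), with bars of 1 SE and red for an adjusted p under 0.05. Dpp10 stands at 0.95 in dentate granule nuclei and Kcnq3 at -0.40 in CA3.

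In astrocytes 18 genes were tested and 10 were called, 3 higher and 7 lower in Arc, where 20% of all genes were called. The 3 that rose were Kcnip4, Kcnd3 and Kcna6, and the 7 that fell were Kcnma1, Kcnn2, Kcnd2, Kcnq3, Kcnc4, Dpp6 and Kcnq5. The summed level of the 10 neuronal markers in astrocytes also moved with genotype. It was 695, 769.7 and 792 CPM in WT-veh, 580.4, 689.8 and 878.5 CPM in WT-PMX, 396, 518 and 570.2 CPM in Arc-veh wells and 393, 552 and 687 CPM in Arc-PMX, and each of the 10 markers was detected in every group. Its part in the results for astrocytes was not tested. The astrocyte nuclei joined several clusters, including a cluster of 1200 nuclei with Gfap, Osmr and C4b among its top genes. The part of a shift in the mix of these clusters was not tested either.

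Kcnip4, on chromosome 5 from 48389502 to 49524907 on the minus strand, was higher in Arc astrocytes, while the summed neuronal markers were lower. Its level in astrocytes was 337, 513 and 653 CPM in WT-veh, 294, 337 and 571 CPM in WT-PMX, 756.5, 979 and 1568 CPM in Arc-veh wells and 620.2, 1002 and 1502 CPM in Arc-PMX. Of the Arc wells, 11 of 12 were above every WT well. The rise was 2.25-fold (log2 difference 1.17, SE 0.13, adjusted p = 7.9e-09). As a share of the neuronal level it had a median of 5.11% in WT, where the marker share was 6.58%, and 12.9% in Arc, where it was 4.79%. The part of neuronal RNA in this rise was not tested. With 31 annotated genes inside or across its 1135 kb, reads of overlapping genes cannot be told apart from its own.

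The Kv4 pore gene Kcnd3, on chromosome 3 from 105452330 to 105674002 on the plus strand, was 60.4, 88.5 and 158 CPM in WT-veh, 37.6, 69.0 and 91.5 CPM in WT-PMX, 105, 148 and 195 CPM in Arc-veh wells and 110.4, 149.7 and 193 CPM in Arc-PMX. Every Arc well was above the WT median and 5 of 12 were above every WT well. Kcnd3 rose 1.83-fold (log2 difference 0.87, SE 0.14, adjusted p = 5.2e-06). The Kv1 pore gene Kcna6, at low levels in astrocytes, was 7.16, 13.6 and 19.8 CPM in WT-veh, 6.42, 18.4 and 26.1 CPM in WT-PMX, 19.9, 29.9 and 36.9 CPM in Arc-veh wells and 12.1, 27.3 and 35.8 CPM in Arc-PMX. All 6 Arc-veh wells lay above all 6 WT-veh wells, while the Arc-PMX wells overlapped the WT ones. Kcna6 rose 1.75-fold (log2 difference 0.81, SE 0.21, adjusted p = 0.0043), on 81 counts in WT and 195 in Arc.

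Among the genes that fell, the BK pore Kcnma1, on chromosome 14 from 23289431 to 24014491 on the minus strand, was 454, 595 and 737 CPM in WT-veh, 391, 501.5 and 578 CPM in WT-PMX, 281, 390.2 and 475 CPM in Arc-veh wells and 362, 400.1 and 425.5 CPM in Arc-PMX. Every Arc well was below the WT median. Kcnma1 fell by 0.52 (SE 0.09, adjusted p = 9.9e-06), a decrease by 30.4%. The SK pore Kcnn2 was 401, 606 and 652 CPM in WT-veh, 428, 505 and 582 CPM in WT-PMX, 188, 371 and 516 CPM in Arc-veh wells and 294, 433.5 and 604.5 CPM in Arc-PMX, and 7 of 12 Arc wells were below every WT well. Kcnn2 fell by 0.45 (SE 0.11, adjusted p = 0.00185). Its WT level in astrocytes was 183% of the neuronal one, against a marker share of 6.58%.

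The Kv4 pore gene Kcnd2 was 614, 721 and 806 CPM in WT-veh, 454, 619 and 804 CPM in WT-PMX, 544.5, 581 and 627 CPM in Arc-veh wells and 302, 492 and 607.5 CPM in Arc-PMX. It fell by 0.39 (SE 0.09, adjusted p = 0.00127), opposite to Kcnd3 in the same nuclei. Kcnq3 was 368, 506 and 598 CPM in WT-veh, 449.9, 514.5 and 873 CPM in WT-PMX, 282, 427 and 475 CPM in Arc-veh wells and 345, 420.2 and 484 CPM in Arc-PMX, and fell by 0.37 (SE 0.11, adjusted p = 0.0103). For both genes all 12 Arc wells were below the WT median, and 3 of 12 were below every WT well.

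The remaining 3 calls were on genes at low levels in astrocytes. Kcnc4 fell by 0.76 (SE 0.22, adjusted p = 0.0100), from 26.3 CPM (6.04 to 42.5) in WT to 14.7 CPM (7.96 to 19.4) in Arc, on 124 and 102 counts. Dpp6 fell by 0.61 (SE 0.18, adjusted p = 0.0103), from 75.9 CPM (21.0 to 112) to 45.0 CPM (29.7 to 76.6). Kcnq5 fell by 0.48 (SE 0.17, adjusted p = 0.0338), from 80.7 CPM (42.1 to 111) to 53.9 CPM (35.2 to 89.6). In WT astrocytes Dpp6 stood at 4.29% and Kcnq5 at 5.81% of the neuronal level, both below the 6.58% of the neuronal markers, so their values there are not above that background. The Dpp6 call was lost with doublets kept (-0.42, adjusted p = 0.16) and with each nucleus named by its own marker score (-0.68, adjusted p = 0.0545). The Kcnq5 call was lost with doublets kept (-0.33, adjusted p = 0.248), without the wells WT-veh F3 and M3 (adjusted p = 0.0606), and in 11 of 24 omissions of a single well.

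Kcnn3 and Kcna2, both highest in astrocytes, and Kcnip3 were not called there. Kcnn3 was 195.6, 270.0 and 287 CPM in WT-veh and 199, 233 and 281 CPM in Arc-veh, with a log2 difference of -0.07 over both treatments. Kcnip3 had a difference of 0.09 and Kcna2 one of -0.34 (adjusted p = 0.14).

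**Figure D5:**
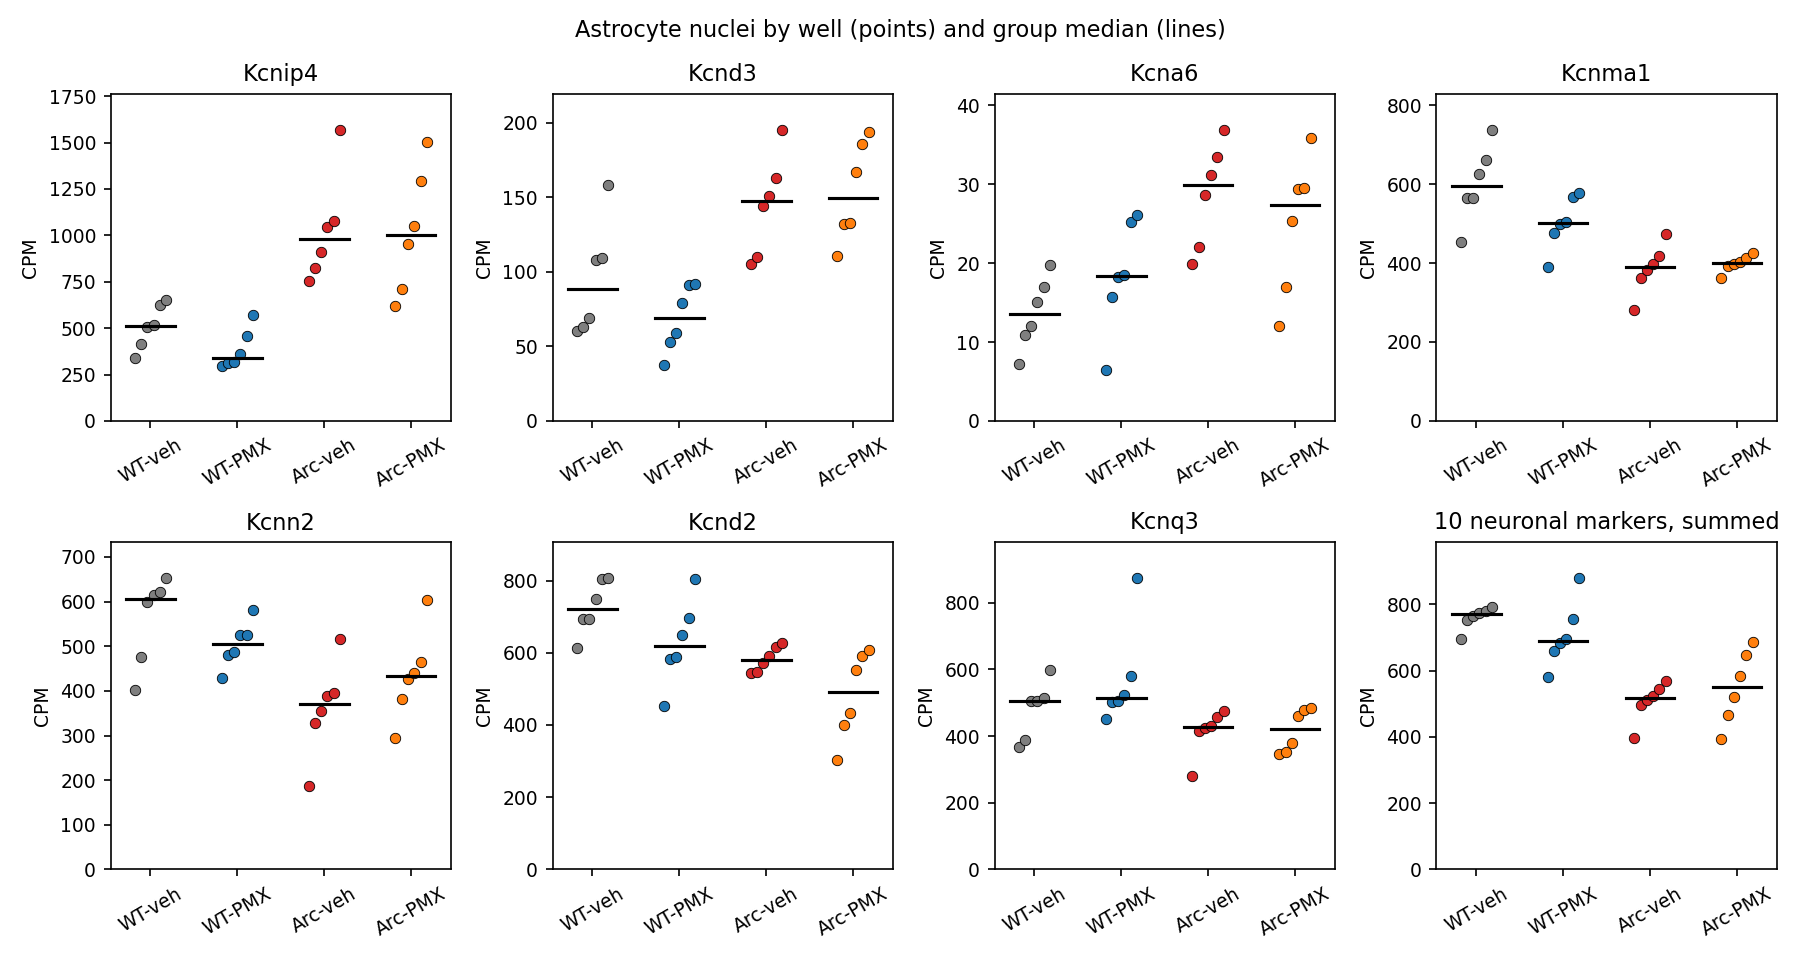
CPM (vertical axes, from 0) in astrocyte nuclei of each well (points) of the 4 groups (horizontal axes), with lines at the medians of 6 wells, for 7 members and for the summed level of 10 neuronal markers. Kcnip4, Kcnd3 and Kcna6 are higher in Arc wells, and Kcnma1, Kcnn2, Kcnd2, Kcnq3 and the neuronal markers are lower.

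In oligodendrocytes 13 genes were tested and Kcnma1 alone was called, where 5.46% of all genes were called. Its level was 117, 174 and 246 CPM in WT-veh, 53.3, 137 and 248 CPM in WT-PMX, 173, 218 and 264 CPM in Arc-veh wells and 170.2, 212 and 430.4 CPM in Arc-PMX. Every Arc well was above the WT median but 9 of 12 lay within the WT range. Kcnma1 rose 1.51-fold (log2 difference 0.60, SE 0.16, adjusted p = 0.0185). This result depends on how nuclei were named: with each nucleus named by its own highest marker score in place of its cluster, the difference was -0.57 (adjusted p = 0.21), and with doublets kept it was 0.48 (adjusted p = 0.16). The neuronal marker sum had medians of 575 CPM in WT-veh, 486.5 in WT-PMX, 436 in Arc-veh and 450.1 in Arc-PMX there, and its part in the result was not tested. Kcna1 and Kcna6, the oligodendrocyte Kv1 genes, were not called.

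In OPC, 18 genes were tested and none was called by edgeR (4 had an unadjusted p under 0.05, and 2.52% of all genes were called). Kcnd2 there had a log2 difference of 0.19 (SE 0.06, adjusted p = 0.14). Kcnh8, the member with the largest ratio of OPC to the next of the 8 types compared, was not called either. Kcna1, a Kv1 pore gene, did not pass the low-count filter in OPC and so was not tested. It was 0, 3.59 and 18.1 CPM (lowest, median and highest of 12 wells) in WT, on 15 counts, and 11.04, 27.4 and 93.2 CPM in Arc, on 62 counts. All 12 Arc wells were above the WT median and 8 were above every WT well, so the groups overlapped.

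Microglia reached 10 nuclei in 9 of the 12 WT wells, 4 of them on vehicle, and in all 12 Arc wells. There, 9 genes were tested, 1 was higher and 1 lower in Arc, and 18.7% of all genes were called. Kcnma1 was 383, 613.5 and 699.6 CPM in WT-veh, 362, 711 and 993 CPM in WT-PMX, 898, 1002 and 1216 CPM in Arc-veh wells and 822, 951 and 1146 CPM in Arc-PMX. All 6 Arc-veh wells lay above all WT-veh wells. Kcnma1 rose 1.57-fold (log2 difference 0.65, SE 0.16, adjusted p = 0.00285), on 159 counts in WT and 1783 in Arc. Kcnip3, a KChIP gene whose product also binds DNA, was 0, 179 and 255 CPM in WT-veh, 109, 226 and 259 CPM in WT-PMX, 52.9, 85.0 and 137 CPM in Arc-veh wells and 57.3, 87.5 and 146 CPM in Arc-PMX, on 49 counts in WT and 146 in Arc. No Arc well lay below the lowest WT well, which was at 0, and all 12 were below the WT median. Kcnip3 fell by 1.14 (SE 0.30, adjusted p = 0.00675). Naming each nucleus by its own marker score ended both calls, at 0.23 (adjusted p = 0.39) for Kcnma1 and -0.39 (adjusted p = 0.15) for Kcnip3, and the call of Kcnip3 also ended without the filter on low counts (-0.77, adjusted p = 0.17) and without the well WT-veh F2 (-0.91, adjusted p = 0.12). The neuronal marker sum in microglia had medians of 669.9 CPM in WT-veh, 707 in WT-PMX, 944 in Arc-veh and 895 in Arc-PMX, with Nefl at 0 counts in 3 of the 4 groups and Grin1 and Stmn2 at 0 counts in WT-veh, and its part in these results was not tested.

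The wells WT-veh F3 and M3 held too few microglia nuclei to enter the 2 microglia calls. Of the other 15 calls, 13 were still made without these wells, Kcnip2 in dentate granule nuclei and Kcnq5 in astrocytes were not, and Dpp10 in dentate granule nuclei stood at 0.98, Kcnt2 at -0.46, Kcnq3 in CA3 at -0.39 and Kcnip4 in astrocytes at 1.17.

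Between the vehicle groups alone, Arc-veh against WT-veh with 6 wells each, 9 of the 164 tests were called, 5 higher and 4 lower in Arc-veh. The count of 9 became 16 without the filter on low counts and 16 with each nucleus named by its own marker score, and 6 to 12 over omissions of a single well. These groups are part of the comparison above, so the values are not independent of it. In dentate granule nuclei Dpp10 was called, with a difference of 0.96 (SE 0.17, adjusted p = 0.00283), where 0.28% of all genes were called. In CA3 Kcnq3 was called, with -0.39 (SE 0.08, adjusted p = 0.0295), where 0.196% of all genes were called, but without the wells WT-veh F3 and M3 it was -0.36 with an adjusted p of 0.296, and 7 of 24 omissions of a single well also ended the call. In astrocytes, where 12.5% of all genes were called, the calls were Kcnip4 (0.97), Kcna6 (1.10), Kcnd3 (0.63), Kcnma1 (-0.68), Kcnn2 (-0.65) and Dpp6 (-0.81). Of these, Dpp6 was lost with doublets kept (-0.54, adjusted p = 0.283) and in 9 of 24 omissions of a single well, Kcnd3 with each nucleus named by its own marker score (0.49, adjusted p = 0.116) and in 5 of 24 omissions, and Kcna6 in 1 of 24 omissions (WT-veh M1). In microglia, where 10.4% of all genes were called, Kcnma1 was called at 0.81 (SE 0.23, adjusted p = 0.0199), but the adjusted p was 0.0704 without the well WT-veh F1, naming each nucleus by its own marker score gave 0.17 (adjusted p = 0.755), and the replicate block (well number within sex) gave 0.76 (adjusted p = 0.0532). No member was called in CA1, interneurons, oligodendrocytes or OPC, where 0.0387%, 0%, 2.87% and 1.07% of all genes were called.

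PMX205 was compared with vehicle over both genotypes, within each genotype, and as the difference of its effect between genotypes. In each of these comparisons edgeR and DESeq2 called 0 of the 164 member tests. Without the filter on low counts edgeR called 1 for Arc-PMX against Arc-veh (Kcnc2 in microglia) and 1 for WT-PMX against WT-veh (Kcnip4 in OPC). By edgeR, 4 tests had an unadjusted p under 0.05 over both genotypes (2.44%, against 2.76% of the tests of all genes). There were 4 for the difference of effects (2.44% against 3.26%) and 4 for Arc-PMX against Arc-veh (2.44% against 2.33%). For WT-PMX against WT-veh there were 5 (3.05% against 3.68%). The smallest adjusted p in these comparisons were, in order, 0.93, 0.90, 0.998 and 0.81. The share of all genes called was 0% in every cell type and comparison, other than 0.0137% in astrocytes, 0.0214% in oligodendrocytes and 0.0323% in OPC for Arc-PMX against Arc-veh.

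The intervals of the differences show what these 6 wells a group could have missed. For Arc-PMX against Arc-veh the log2 difference of Dpp10 in dentate granule nuclei was 0.16, with an interval (1.96 SE to either side) of -0.14 to 0.47, and that of Kcnt2 was 0.01 (-0.22 to 0.23). For Kcnq3 in CA3 it was 0.04 (-0.12 to 0.20), and for Kcnip4 in astrocytes it was -0.01 (-0.37 to 0.34). The Kcnn2 difference in astrocytes was 0.25 (-0.05 to 0.55) and the Kcnma1 difference in microglia was -0.11 (-0.43 to 0.21). The Kcnip2 difference in dentate granule nuclei was -0.18 (-0.43 to 0.08).

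Between the sexes, over the 4 groups, 1 of the 164 tests was called, and 22.6% had an unadjusted p under 0.05, against 11.9% of the tests of all genes. The count of 1 became 15 without the filter on low counts, 4 with DESeq2 and 2 to 9 in 8 of 24 omissions of a single well (9 without Arc-PMX F1). Kcnd2 in dentate granule nuclei was 2643, 3414 and 3777 CPM in females and 3554, 4162 and 4475 CPM in males (12 wells each). The ranges overlapped between 3554 and 3777 CPM. Kcnd2 was 1.25-fold higher in males (log2 difference 0.32, SE 0.06, adjusted p = 0.0138), where 0.116% of all genes were called. Kcnd2 in CA1 had 0.29 (SE 0.08, adjusted p = 0.12) and in CA3 0.27 (SE 0.09, adjusted p = 0.21), and Kcnt2 in dentate granule nuclei had 0.35 (SE 0.08, adjusted p = 0.055). Of the other types, 0.126% of all genes were called in CA1, 0.062% in CA3, 0.0791% in interneurons, 0.151% in astrocytes, 0.15% in oligodendrocytes, 0.097% in OPC and 0.168% in microglia.

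The rest of the potassium channel family was read from a list of 70 further subunits. In dentate granule nuclei 32 of the list were tested for Arc against WT, where 1.59% of all genes were called. Kcnt1, the Slack channel and closest relative of Kcnt2, was called there, with 1.11 (SE 0.23, adjusted p = 0.0064). Kcnt1 thus rose where Kcnt2 fell, at low counts (113 in WT and 212 in Arc). In astrocytes 12 of the list were tested, where 20% of all genes were called. The leak channel gene Kcnk10 (0.51) was higher in Arc astrocytes, and Kcnj6 (-0.82), Kcnk2 (-0.53) and Kcnj16 (-0.40) were lower. None was called by edgeR in the other types. Between the vehicle groups alone, Kcnk10 (0.89), Kcnk2 (-0.65) and Kcnj16 (-0.63) were called in astrocytes, where 12.5% of all genes were called.

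Of 22 genes for proteins that anchor or cluster these channels, Epb41l3, a cytoskeletal linker at axonal Kv1 clusters, fell by 0.36 (SE 0.09, adjusted p = 0.0205) in dentate granule nuclei, 1 of 17 tested, where 1.59% of all genes were called. In astrocytes, where 20% of all genes were called, 6 of 13 were called, among them Ank2 with 0.55, Ank3 with -0.64, Lgi1 with -0.58, Cntnap2 with -0.44 and Cntn1 with -0.37. In oligodendrocytes Ank2 rose by 0.29 (adjusted p = 0.0057), 1 of 11 tested, where 5.46% of all genes were called. Between the vehicle groups alone, Ank2 (0.53), Cntnap2 (-0.70), Lgi1 (-0.63) and Cntn1 (-0.36) were called in astrocytes, and Ank2 (0.36) and Cntnap2 (-0.83) in oligodendrocytes. No gene of this list was called in CA1, CA3, interneurons, OPC or microglia.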

How the data were processed

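Single-nucleus RNA was measured by split-pool barcoding, in 24 wells of hippocampal nuclei sequenced as 7 sublibraries. The authors ran the Parse split-pipe pipeline and deposited unfiltered counts of transcripts per gene and barcode; bcl2fastq and the build mm10 are named in the submitters' processing notes, and the strand setting is not given in the sources used here. The wells and their groups came from the deposited sample sheet. The study's reporting summary mentions an excluded WT sample with Arctic-like expression but names no well, so all 24 were used here.

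Nuclei with more than 300 and fewer than 50000 transcripts, over 400 genes and under 1% mitochondrial transcripts were kept (45138). Of their barcodes, 40769 were distinct and 4080 occurred in 2 or more sublibraries, so nuclei were kept apart by sublibrary. Doublets with a Scrublet score over 0.25 (expected rate 0.06) were removed per sublibrary. Clusters came from 2000 variable genes without potassium channel genes, 30 principal components, 15 neighbours and Leiden resolution 1.5 (scanpy 1.11.5, leidenalg 0.10.2, Python 3.11.15), 41 in all. The rules that turned marker scores into names were set after the clusters were seen. Clusters that met none of these rules, or were neurons without a subtype, were not analysed further (3876 and 5898 nuclei). The median transcripts per nucleus were 6011 in dentate granule, 11368.5 in CA1, 16811 in CA3 and 1770 in astrocyte nuclei.

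Sums of the counts over the nuclei of a type in a well, where at least 10 were present, were tested in R 4.3.3 with edgeR 4.0.16 (quasi-likelihood test, TMM, filterByExpr, 4 groups with sex as covariate, Benjamini-Hochberg adjustment over all genes of a type and contrast, two-sided, called under 0.05). The study's own test took cells as replicates and was not used. DESeq2 1.42.0, other scaling, no filter on low counts, no covariate, other cell naming, doublets kept, stricter nucleus filters, omitted wells and a replicate block were alternatives. The tests were checked on simulated data.

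Members and lists were chosen with earlier results of these data known. All 28 members are named, and of the further lists the genes called, up to 5 per type and contrast by size of the log2 difference. Some results of the further subunit list are not reported here.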

Additional observations from a re-analysis of the deposited data

Results flagged for a closer look

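Within the groups of 4 to 6 wells behind the called values, 7 of 72 had a highest or lowest well far from the rest of its group, where chance gives about 1 in 20. Dpp6 in astrocytes was low in WT-veh M3, at 24.2 CPM, and high in Arc-veh M3, at 76.6 CPM. Kcnq3 in astrocytes was high in WT-PMX M3, at 873 CPM, and low in Arc-veh M2, at 282 CPM. In dentate granule nuclei the well WT-veh M2 was high both for Kcnd2, at 4253 CPM, and for Kcnt2, at 478.5 CPM, and in oligodendrocytes Kcnma1 was high in Arc-PMX M2, at 430.4 CPM.

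The Arc minus WT difference differed between neuronal subtypes in 8 tests (16 without the filter on low counts), all by the edgeR quasi-likelihood test of the difference itself. For Kcnt2, that of CA1, CA3 and interneurons exceeded that of dentate granule nuclei by 0.50, 0.44 and 0.42 on the log2 scale. For Dpp10, CA3 minus dentate granule was -0.62 and interneuron minus dentate granule was -0.98. For Kcnq3, CA3 minus dentate granule was -0.41, CA3 minus CA1 was -0.27 and interneuron minus CA3 was 0.52.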

How the results depend on the processing

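For Arc against WT, 17 calls became 15 to 21 over the other settings and 15 to 19 when single wells were left out. The Arc-veh against WT-veh count of 9 became 16 without the filter on low counts and 16 with nuclei named singly, and 6 to 12 over omissions. The male against female count of 1 became 4 with DESeq2, 15 without the filter, 2 without WT-veh F3 and M3 and 2 over 500 transcripts and genes, and 1 to 9 over omissions (9 without Arc-PMX F1). The PMX205 comparisons kept 0 calls under all settings run, other than 1 without the filter for Arc-PMX against Arc-veh (Kcnc2 in microglia) and 1 for WT-PMX against WT-veh (Kcnip4 in OPC), with 0 over omissions. The subtype-pair count of 8 became 16 without the filter. Kcnma1 in oligodendrocytes reversed to -0.57 with nuclei named singly. The cause was not tested in any of these.

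The Kcnip2 call in dentate granule nuclei was lost without Arc-PMX F1, F2, M2 or M3, Arc-veh F3, M2 or M3, WT-PMX F1, F2, F3 or M3, or WT-veh F1, M1 or M3. The Kcnq5 call in astrocytes was lost without Arc-PMX F1, F2 or M3, Arc-veh F2, F3 or M3, WT-PMX F1, F3 or M2, or WT-veh F1 or M1 (adjusted p up to 0.0794). For Arc-veh against WT-veh, Kcna6 was lost without WT-veh M1 (0.90, adjusted p = 0.0842), Kcnd3 with nuclei named singly (0.49, adjusted p = 0.116) and without Arc-veh F3 or M1 or WT-veh F1, M1 or M3 (up to 0.126), Dpp6 with doublets kept (-0.54, adjusted p = 0.283) and without Arc-veh F2, F3, M1 or M2 or WT-veh F1, F2, F3, M1 or M2 (up to 0.0864), and Kcnq3 in CA3 without Arc-veh F2, F3 or M3 or WT-veh F3, M1, M2 or M3 (up to 0.137).

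With the replicate block (well number within sex), 18 tests were called for Arc against WT and 10 for Arc-veh against WT-veh, with 0 in the PMX205 comparisons. The block ended the Kcnma1 call in microglia for Arc-veh against WT-veh (0.76, adjusted p = 0.0532). Wells with the same number deviated together weakly (median correlation 0.024 to 0.097, with pairs from below 0 up to 0.46). In CA1 the median was 0.097, against 0.064 for wells of the same sex with other numbers, and 18 of 36 pairs were over 0.1. In microglia it was 0.024 against 0.032. The numbers were not taken to pair wells, and a weak pairing is not excluded. Counts of transcripts limit microglia most, where a well held as few as 8008 transcripts.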
